A study of Mus musculus with 6 samples.

Results

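The MYC and MAX network is a small family of transcription factors, taken here as the 10 genes Myc, Mycn, Max, Mxd1, Mxd3, Mxd4, Mxi1, Mnt, Mlx and Mga. Members were the rows of the authors' deposited table whose gene symbol equals one of these names, and all 10 were found among 39527 genes. All 10 carried an adjusted p-value, as did 14961 genes in all. The data are RNA sequencing of group 2 innate lymphoid cells (ILC2s), tissue-resident lymphocytes that secrete type 2 cytokines, sorted from mouse lung after 4 days of IL-33, the epithelial alarmin that activates them. The labels give 3 WT samples (genotype R5/+) and 3 KO samples (R5/+LKB1f/f), each a pool of 3 to 4 mice. Both groups carry R5 and both received IL-33. The labels spell out neither R5 nor a Cre driver. R5 is the usual short name of an Il5 allele that carries a reporter and Cre, so that deletion would be limited to cells that have expressed Il5. LKB1, encoded by Stk11, is the kinase that activates AMPK and its relatives, and the comparison asks what its loss does to ILC2s. Mouse ages are not given in the labels.

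MYC proteins are basic helix-loop-helix leucine zipper factors that bind DNA as dimers with MAX, at the E-box CACGTG, and raise transcription of genes for ribosome production, metabolism and cell division. MXD1, MXI1, MXD3, MXD4 and MNT compete for MAX and for the same site and recruit SIN3 and histone deacetylases, which lowers transcription. MGA, a very large protein, pairs with MAX in a Polycomb-type complex (PRC1.6), and MLX is a MAX-like partner for the glucose-sensing factors MondoA (Mlxip) and ChREBP (Mlxipl). In lymphocytes Myc is known as a gene induced by activation that supports growth and division.

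The values are the authors' comparison of the genotypes, with 1 mean normalized count, 1 log2 fold change and 1 standard error (SE) per gene. Values of single samples and their depth were not used here, because the names of those columns match no label. No source used here states which genotype is the numerator, so fold changes keep the sign of the authors' deposited table and are called positive or negative. Stk11 (ENSMUSG00000003068, mm10 chr10:80115803-80130682), the floxed gene, had a log2 fold change of -1.34 ± 0.30 (SE, adjusted p 0.000102557) in the authors' deposited table, so a negative value below has the sign of Stk11. A gene was called when its adjusted p was below 0.05. Of the 14961 genes, 24.5% were called, 11.0% positive and 13.5% negative. Calls were more frequent in the most abundant 25% of these genes, at 16.4% positive and 23.4% negative. The labelled cell type was checked on 12 ILC2 markers, all of which were measured, among them Gata3 at a mean of 44552 and Il1rl1, the IL-33 receptor gene, at a mean of 16936 normalized counts in the authors' deposited table. The markers themselves were positive in 2 and negative in 3 of 12 cases (median log2 fold change 0.13). Crlf2 of the TSLP receptor (0.90) and Gata3 (0.63) were positive, and the cytokine Il13 (-1.06), Klrg1 (-0.44) and Thy1 (-1.98, at a mean of 291 normalized counts) negative, in the authors' deposited table. Since the RNA is from bulk cells, fewer cells of a type and less RNA per cell cannot be told apart.

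Some members carry the network's own site, or a site of the cell cycle factors E2F, just upstream of their start. The RefSeq promoter table for GRCm38.p6 (mm10), with 250 bases before to 50 after each start, held 9 of the 10 members. Among these, 4 genes (Max, Mxd4, Mnt and Mlx) had the E-box CACGTG, which reads the same on both strands. It is found in 7.15% of all 32851 promoters of that table and, at any start, in 8.09% of its 27025 genes. Of 10402 genes with an adjusted p and a promoter there, 11.3% have it. Mycn had TTTGGCGC, a form of the E2F motif searched on both strands, at positions -183 and -168 from the start, and this motif is found in 0.514% of promoters. At least 2 matches to it, overlapping ones included, were found in 2 of the 32851 promoters. Another form, TTTCCCGC, also searched on both strands, was in no member promoter and in 1.07% of all promoters. Mga, Mxd1, Mxd3 and the 3 starts of Mxi1 had none of these letters in the window, and the promoter of Myc was not used here. The stretches below are shown because they place these sites beside the genes' values, 5′ to 3′ on the gene's strand, with the motif in capitals. Except for Max, they hold upstream bases outside annotated exons. The Max stretch crosses the RefSeq start, but lies wholly upstream of the Max gene position given below, which ends at chr12:76962201. The 2 annotations thus place the start of Max differently.
Mycn (chr12:12941915-12942086, minus strand, E2F motif): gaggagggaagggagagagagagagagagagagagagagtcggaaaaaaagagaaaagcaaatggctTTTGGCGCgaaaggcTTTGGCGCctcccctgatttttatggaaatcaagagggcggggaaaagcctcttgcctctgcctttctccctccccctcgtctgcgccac
Max (chr12:76962234-76962263, minus strand, E-box across the start): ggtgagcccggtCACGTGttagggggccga
Mxd4 (chr5:34187721-34187960, minus strand, E-box): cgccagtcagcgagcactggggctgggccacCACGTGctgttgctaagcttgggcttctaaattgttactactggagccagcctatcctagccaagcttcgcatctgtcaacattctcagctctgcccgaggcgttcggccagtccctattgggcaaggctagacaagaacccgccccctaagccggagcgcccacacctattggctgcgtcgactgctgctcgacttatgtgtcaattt
Mnt (chr11:74830674-74830919, plus strand, E-box): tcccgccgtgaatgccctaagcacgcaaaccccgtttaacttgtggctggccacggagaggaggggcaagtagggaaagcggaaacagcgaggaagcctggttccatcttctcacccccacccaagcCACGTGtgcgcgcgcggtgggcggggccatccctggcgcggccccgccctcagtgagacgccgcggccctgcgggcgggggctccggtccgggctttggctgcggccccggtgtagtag
Mlx (chr11:101087040-101087276, plus strand, E-box): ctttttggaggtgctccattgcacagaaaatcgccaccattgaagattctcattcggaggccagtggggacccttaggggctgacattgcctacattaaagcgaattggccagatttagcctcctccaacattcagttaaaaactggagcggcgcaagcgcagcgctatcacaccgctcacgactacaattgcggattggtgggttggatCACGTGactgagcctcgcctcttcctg

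Of the 10 members, 5 were called positive, 2 negative and 3 were not called, beside 11.0% positive and 13.5% negative over all tested genes. Both MYC genes and their partner Max were positive, while the repressor genes went both ways. The median log2 fold change of the 10 members was 0.34, beside -0.0056 over all tested genes. Since the members were proposed with results of these data known, these counts describe the network and carry no test of it as a group.

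**Figure D1:**
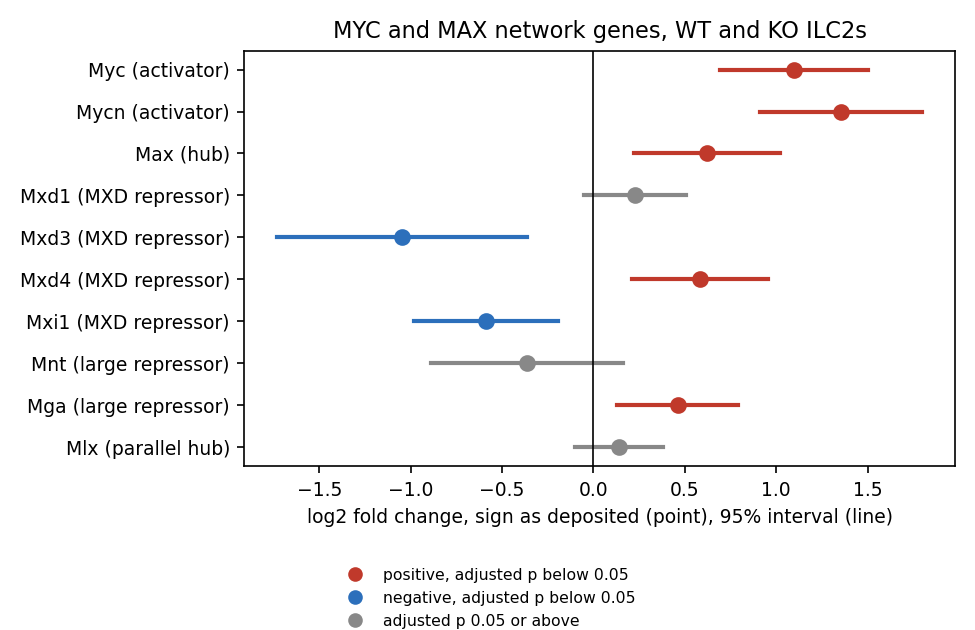
Log2 fold change (horizontal axis, sign as in the authors' deposited table) of each network gene, as a point with its 95% interval as a line, coloured by call. Myc, Mycn, Max, Mxd4 and Mga lie to the right of 0 with intervals that leave it out, Mxd3 and Mxi1 lie to the left, and the intervals of Mxd1, Mnt and Mlx include 0.

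Mycn, which encodes N-MYC, the paralog best known from embryonic and neural progenitor cells, had the largest fold change of the network. Its mean was 413.3 normalized counts and its log2 fold change 1.36 ± 0.23 (SE, adjusted p 1.26e-07) in the authors' deposited table. This is a 2.56-fold difference with a 95% interval from 1.88 to 3.48. By p-value Mycn (ENSMUSG00000037169, mm10 chr12:12936093-12941914) was number 302 of the 14961 tested genes. Its promoter is the one with the pair of E2F motifs shown above.

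Myc (ENSMUSG00000022346, mm10 chr15:61985391-61990374) was positive too, from a far higher level. Its mean was 5105 normalized counts and its log2 fold change 1.10 ± 0.21 (SE, adjusted p 3.19e-06) in the authors' deposited table. The fold difference was 2.14, with a 95% interval from 1.62 to 2.83. The intervals of Myc and Mycn overlap over most of their length, and the difference between the paralogs was not tested. Pvt1, the noncoding neighbour of Myc, had 0.26 ± 0.21 (SE) at a mean of 222 normalized counts in the authors' deposited table and was not called. Mycl, the third MYC paralog, which lies outside the 10 members, had the other sign. It was near the detection limit, with a mean of 13.6 normalized counts and a log2 fold change of -2.54 ± 0.81 (SE, adjusted p 0.0107729) in the authors' deposited table.

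Max, the obligate partner, had a smaller positive difference than the MYC genes. Its mean was 1131 normalized counts and its log2 fold change 0.62 ± 0.20 (SE, adjusted p 0.0139851), a 1.54-fold difference with a 95% interval from 1.16 to 2.03, in the authors' deposited table. The call was lost at an adjusted p below 0.01 and under a Holm adjustment. Max (ENSMUSG00000059436, mm10 chr12:76937269-76962201) has the E-box printed above across its RefSeq start.

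The 4 MXD family genes did not move as a block, with 1 positive, 2 negative and 1 not called. Mxd4 (ENSMUSG00000037235, mm10 chr5:34173883-34187720) was the positive one, at 0.58 ± 0.19 (SE, adjusted p 0.0129727) and a mean of 941.7 normalized counts in the authors' deposited table. Longer genes had higher fold changes in the table as a whole (Spearman rho 0.26 across 13036 protein-coding genes, which are not independent replicates). With trends on length and GC content removed, Mxd4 had 0.47 with an adjusted p of 0.0571 and was no longer called. Its adjusted p over all alternatives ranged from 0.00757 to 1. An antisense gene, Gm42846, shares 514 bases of Mxd4 exons and is not used here.

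Mxd3, the MXD gene known for expression in dividing cells in S phase, was negative. Its mean was 139 normalized counts and its log2 fold change -1.05 ± 0.35 (SE, adjusted p 0.0154341) in the authors' deposited table, the widest error of the network. This is a 2.07-fold difference, with a 95% interval from 1.29 to 3.33. The call was lost at an adjusted p below 0.01 and under a Holm adjustment. Mxd3 (ENSMUSG00000021485, mm10 chr13:55325168-55329823) overlaps Prelid1 on the other strand by 105 exonic bases, 4.43% of its exons. Prelid1, a mitochondrial lipid transfer gene, had a mean 34.2 times that of Mxd3 and was negative as well, at -0.79 ± 0.13 (SE) in the authors' deposited table. The cDNA kit in the labels is not stated to mark strand and the counting is not given, so reads in this overlap cannot be told apart and the value of Mxd3 is uncertain.

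Mxi1, an MXD family gene also known as MXD2, was the other negative repressor. It had -0.59 ± 0.20 (SE, adjusted p 0.0189542) at a mean of 466.4 normalized counts in the authors' deposited table, a 1.50-fold difference with a 95% interval from 1.14 to 1.98. The call was lost at an adjusted p below 0.01 and under a Holm adjustment. Adjusted over every gene with a p-value, its adjusted p was 0.0493. Mxi1 (ENSMUSG00000025025, mm10 chr19:53310518-53375810) shares 194 exonic bases with Gm10197 on the other strand, which is not used here.

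Mxd1, the repressor best known from cells that leave the cycle and differentiate, was the most abundant member by count. Its mean was 12202 normalized counts and its log2 fold change 0.23 ± 0.14 (SE, adjusted p 0.254618) in the authors' deposited table, and it was not called. Its 95% interval, from -0.052 to 0.51, leaves out a change as large as that of Myc. Mxd1 lies at mm10 chr6:86647042-86669161 (ENSMUSG00000001156).

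The large repressors Mnt and Mga had opposite signs, and the difference between them was not tested. Mnt (ENSMUSG00000000282, mm10 chr11:74830920-74845725), the constitutively expressed antagonist of MYC, had -0.36 ± 0.27 (SE, adjusted p 0.350989) at a mean of 151.5 normalized counts in the authors' deposited table. Mga (ENSMUSG00000033943, mm10 chr2:119897228-119969581) was called positive, at 0.46 ± 0.17 (SE, adjusted p 0.0290648) and a mean of 760.2 normalized counts in the authors' deposited table. It has the longest exons of the network, 15.34 kb in all. With the length and GC trends removed its log2 fold change was 0.27 with an adjusted p of 0.26, and adjusted over every gene with a p-value its adjusted p was 0.0751, so that the call was lost in both. Its adjusted p over all alternatives ranged from 0.0168 to 1.

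Mlx, the hub of the parallel arm, had the smallest error of the network and a small fold change. Its mean was 955.9 normalized counts and its log2 fold change 0.14 ± 0.12 (SE, adjusted p 0.45069) in the authors' deposited table. Mlx (ENSMUSG00000017801, mm10 chr11:101087277-101092207) has the shortest exons of the 10, 1.999 kb in all. With the length and GC trends removed it had 0.35 with an adjusted p of 0.0266 and was called, while its adjusted p over all alternatives ranged from 0.0266 to 1. Psmc3ip, a recombination gene on the other strand, overlaps 19.3% of Mlx exons and was negative at -1.49 ± 0.35 (SE) in the authors' deposited table, at 0.095 times the mean of Mlx.

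**Figure D2:**
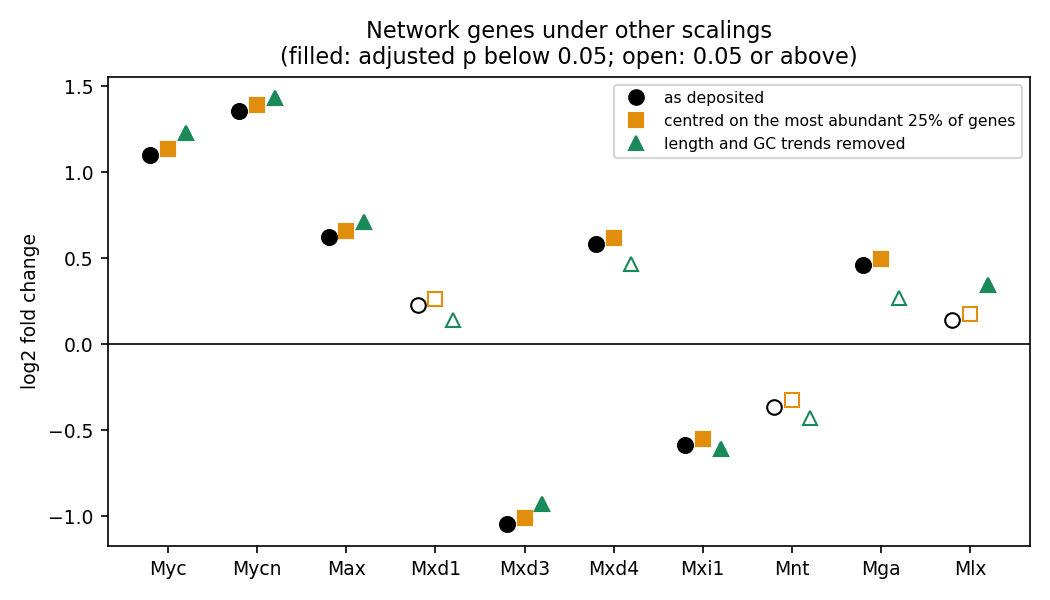
Log2 fold change (vertical axis) of each network gene as deposited, centred on the most abundant 25% of genes, and with length and GC trends removed, with filled symbols for an adjusted p below 0.05. Myc, Mycn, Max, Mxd3 and Mxi1 stay filled under all 3, while Mxd4 and Mga are open and Mlx is filled with the trends removed.

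Levels can be compared between genes only per length of exon, taken here as the merged exons of all annotated transcripts. The length of the transcripts present in these cells was not used, so the order and ratios below rest on this choice. On the scale of mean normalized counts per kb of exon, Myc was the highest at 1879 and Mxd1 the second at 1725, followed by Mlx at 478.2, Max at 314.5, Mycn at 125.4 and Mxd4 at 111. Mxi1 (68.4), Mxd3 (58.7), Mga (49.6) and Mnt (32.7) were the lowest on this scale. Myc stood at 15.0 times Mycn and 5.98 times Max per kb. No spread over samples goes with these means, so that it is not known which neighbours in this order differ. Among all tested genes Myc was in the 97.0th percentile per kb and Mnt in the 36.2th.

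**Figure D3:**
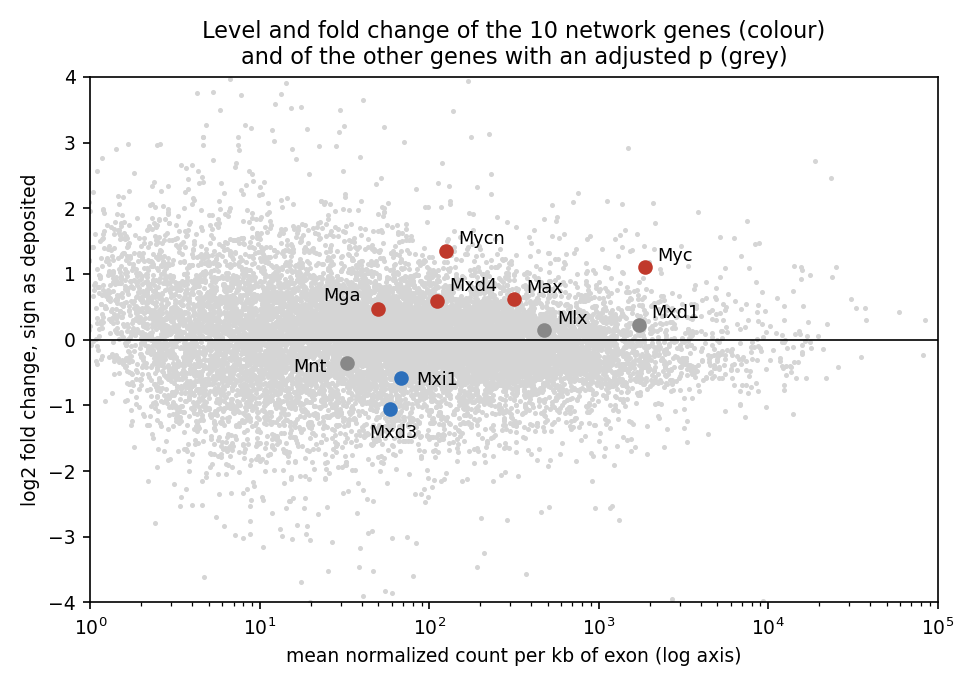
Mean normalized count per kb of exon (horizontal log axis) against log2 fold change (vertical axis, limited to -4 to 4, which leaves out 46 of all tested genes), with network genes coloured by call and the other tested genes in grey. The horizontal axis is limited too, and genes without an exon length are not drawn. Myc and Mxd1 sit at the right at 1879 and 1725 per kb, and Myc lies above the bulk of genes of its level while Mxd1 lies within it.

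Genes for other proteins that pair with or act through the network went both ways. Of 14 tested partners, corepressors and related E-box factors, 2 were positive and 3 negative, beside 11.0% positive and 13.5% negative over all tested genes. Their median log2 fold change was -0.044, beside -0.0056 over all tested genes. Tfeb, the lysosomal E-box factor, was one of the positive genes, at 0.67 ± 0.18 (SE) in the authors' deposited table. Hdac1 and Hdac2, histone deacetylases of the SIN3 complex, were both called negative (-0.48 for Hdac1 and -0.38 for Hdac2 in the authors' deposited table). Sin3a (0.18), Sin3b (-0.14), the MYC partner Zbtb17 or MIZ1 (-0.0043) and MondoA, Mlxip (-0.10), were not called in the authors' deposited table. ChREBP, Mlxipl, had a mean of 9.72 normalized counts and no adjusted p.

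MYC coactivators were called in 5 of 14 cases, 1 positive and 4 negative (median -0.19). These are 7.14% positive and 28.6% negative. Over all tested genes the shares were 11.0% and 13.5%, and in the most abundant 25% of them 16.4% and 23.4%. Of the coactivators, 9 were not called. With the length and GC trends removed 0 were positive and 2 negative, and 2 were also negative with p adjusted over every gene that had one. The ATPases Ruvbl1 and Ruvbl2 of the TIP60 and INO80 complexes had -0.59 ± 0.19 and -0.54 ± 0.20 (SE) in the authors' deposited table. The actin-like subunit Actl6a had -0.57 ± 0.17 and the host cell factor Hcfc1 -0.40 ± 0.16, while Ep400, the TIP60 complex ATPase, had 0.40 ± 0.13 (SE) in the authors' deposited table. In the MGA complex PRC1.6, 5 of 13 members (38.5%) were negative and 0 positive (median -0.16), beside the same shares over all tested genes. The count was 3 negative both with the length and GC trends removed and with p adjusted over every gene that had one. They were Tfdp1, the dimer partner of E2F (-1.11 ± 0.20), Pcgf6 (-0.57 ± 0.21), Cbx3 (-0.45 ± 0.14), Hdac1 and Hdac2, with SE, in the authors' deposited table. Hdac1 and Hdac2 are also counted among the corepressors above, and Wdr5, not called, is in both the coactivator and the PRC1.6 list.

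Among 20 genes that set the stability or phosphorylation of MYC protein, 2 were positive and 4 negative (median -0.23). That is 10% and 20%, beside 11.0% and 13.5% over all tested genes and 16.4% and 23.4% in the most abundant 25%. Cip2a, an inhibitor of the phosphatase that destabilises MYC, had -1.45 ± 0.21 and Aurka, the mitotic kinase that shields N-MYC from degradation, -1.38 ± 0.25 (SE) in the authors' deposited table. The kinase gene Pim3 was negative at -0.47 in the authors' deposited table. The positive genes were the ubiquitin ligase Trim32 (0.88 ± 0.21) and the kinase Gsk3b (0.46 ± 0.13, SE), which marks MYC for degradation, in the authors' deposited table. The ligase genes Fbxw7 (-0.20 ± 0.27) and Huwe1 (0.0080 ± 0.14, SE) were not called in the authors' deposited table. With p adjusted over every gene that had one, 2 were negative, and 2 also after centring on the most abundant 25% of genes. Only RNA was measured, and MYC protein was not.

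Genes that MYC is known to activate had mostly the other sign than Myc, Mycn and Max. Of 80 such genes in 3 lists, 44 (55%) were negative and 3 (3.75%) positive, with 70 below 0, 10 above 0 and a median log2 fold change of -0.51. Over all tested genes 13.5% were negative and 11.0% positive, and in the most abundant 25% of them 23.4% and 16.4%. The targets were more abundant than most genes, with a median mean of 1133 normalized counts, beside 279 over all tested genes. The lists hold genes of growth and division that other factors also control. Of these genes 38 were negative and 3 positive with the length and GC trends removed.

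Ribosome biogenesis and nucleolar targets were negative in 14 and positive in 0 of 30 cases (median -0.42). The shares were 46.7% negative and 0% positive, beside 13.5% and 11.0% over all tested genes. In the most abundant 25% of tested genes they were 23.4% and 16.4%. Npm1, the abundant nucleolar chaperone nucleophosmin, had -0.89 ± 0.13 (SE, adjusted p 1.55e-10) in the authors' deposited table. Ncl, encoding nucleolin, was the most abundant at a mean of 10947 normalized counts and had -0.51 ± 0.14 (SE) in the authors' deposited table. The ribosome assembly factors Mrto4 (-0.78 ± 0.15) and Nip7 (-0.59 ± 0.13, SE) were negative in the authors' deposited table. With p adjusted over every gene that had one, 9 were negative.

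Metabolic and growth targets were negative in 20 and positive in 2 of 32 cases (median -0.68). The shares were 62.5% negative and 6.25% positive, beside 13.5% and 11.0% over all tested genes. In the most abundant 25% of tested genes they were 23.4% and 16.4%. Mthfd2 of mitochondrial one-carbon metabolism had -1.40 ± 0.17, the lactate transporter Slc16a1 -1.21 ± 0.17 and Phgdh, the first enzyme of serine synthesis, -1.46 ± 0.24 (SE) in the authors' deposited table. Slc7a5, the large neutral amino acid transporter, had -1.01 ± 0.24 (SE) in the authors' deposited table. The positive ones were the glucose genes Hk2 (0.86), a hexokinase, and Slc2a1 (0.35), the transporter GLUT1, in the authors' deposited table. Several targets often used as a MYC readout were not called, with Odc1, the polyamine enzyme, at 0.080 ± 0.23 and Ldha, the most abundant of the list, at -0.19 ± 0.14 (SE) in the authors' deposited table.

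Cell cycle targets were negative in 10 and positive in 1 of 18 cases (median -0.79). The shares were 55.6% negative and 5.56% positive, beside 13.5% and 11.0% over all tested genes. In the most abundant 25% of tested genes they were 23.4% and 16.4%. Aurka, called negative, and Skp2, not called, are also counted among the genes of MYC protein stability above. Cks1b, a cyclin-dependent kinase subunit, had -1.69 ± 0.21, Birc5, encoding survivin, -1.75 ± 0.24 and Cdk4 -0.90 ± 0.15 (SE) in the authors' deposited table. Ccnd2, a D-type cyclin, was the positive one at 0.85 in the authors' deposited table. Id2, the most abundant and an ILC factor in its own right, had -0.12 ± 0.26 (SE) in the authors' deposited table.

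The E-box was more frequent in the promoters of these targets than over all tested genes, though most targets lacked it. Lists and motif were chosen with earlier results of these data known, so this excess carries no test. Of 68 tested targets with a promoter in the RefSeq table, 20 (29.4%) had CACGTG in the window, beside 11.3% of 10402 tested genes. Of the 20 with the site 11 were negative and 0 positive (median log2 fold change -0.60), and of the 48 without it 26 were negative and 2 positive (median -0.47). The difference between targets with and without the site was not tested. By list, the site was in 35.7% of metabolic, 29.2% of ribosome biogenesis and 18.75% of cell cycle targets. It was not particular to activated targets, with 4 of 13 MYC-repressed genes (30.8%) and 2 of 10 Mondo and MLX targets (20%). The promoters of Cdk4 and Slc16a1, those with the smallest p among E-box targets of the cell cycle and metabolic lists, are shown upstream of the start with the E-box in capitals. Cdk4 has 4 copies, a number that 8 of the 32851 promoters reach.
Cdk4 (chr10:127063323-127063533, plus strand): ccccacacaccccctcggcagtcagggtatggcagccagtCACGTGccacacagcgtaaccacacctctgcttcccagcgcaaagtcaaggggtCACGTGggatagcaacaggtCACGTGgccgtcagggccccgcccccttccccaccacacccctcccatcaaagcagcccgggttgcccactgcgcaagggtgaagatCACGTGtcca
Slc16a1 (chr3:104638424-104638509, plus strand): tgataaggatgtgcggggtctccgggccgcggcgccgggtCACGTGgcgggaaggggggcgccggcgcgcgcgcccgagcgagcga

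**Figure D4:**
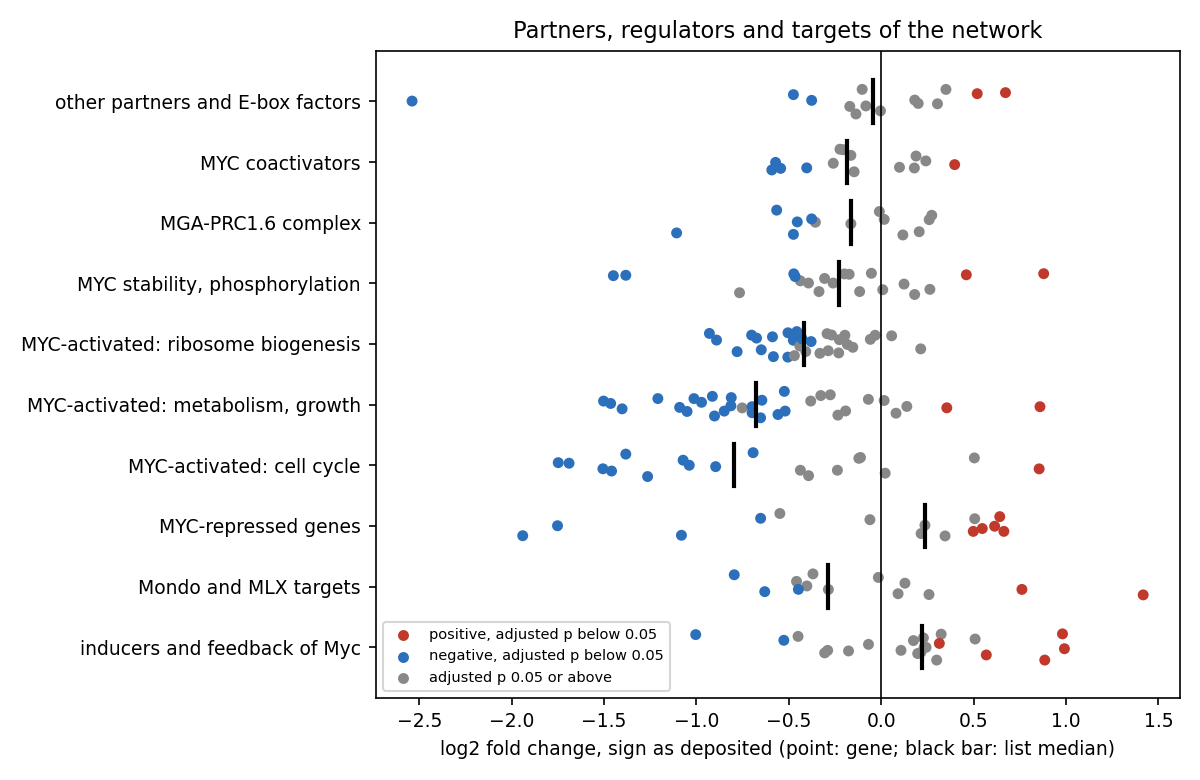
Log2 fold change (horizontal axis, sign as in the authors' deposited table) of every tested gene in 10 lists of partners, regulators and targets, coloured by call, with the list median as a black bar. The 3 lists of MYC-activated targets have medians of -0.42, -0.68 and -0.79, left of those of the MYC-repressed genes and of the inducers of Myc at 0.24 and 0.22.

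Genes that MYC is known to repress went both ways, with 5 positive and 4 negative of 15 tested (median 0.24). That is 33.3% and 26.7%, beside 11.0% and 13.5% over all tested genes and 16.4% and 23.4% in the most abundant 25%. Adjusted over every gene with a p-value 3 were positive, and adjusted over genes with a mean of at least 100 normalized counts 2 were negative. The antiproliferative gene Btg2 had 0.66 ± 0.10 and the factor Klf6 0.64 ± 0.18 (SE) in the authors' deposited table. Cdkn1a, the cell cycle inhibitor p21, had 0.61, and Btg1 and Gadd45a 0.55 and 0.50 in the authors' deposited table, all called positive. On the negative side stood the stress gene Ndrg1 (-1.08 ± 0.17, SE) and the cell cycle inhibitors Cdkn1c (-1.94), Cdkn2b (-1.75) and Cdkn2c (-0.65) in the authors' deposited table. The means of Cdkn1c and Cdkn2b were low, at 59 and 48.7 normalized counts in the authors' deposited table. Gadd45b, the most abundant, had 0.51 ± 0.41 (SE) in the authors' deposited table and was not called.

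Genes listed here as targets of MLX and its Mondo partners were positive in 2 and negative in 3 of 13 tested cases (median -0.29). That is 15.4% and 23.1%, beside 11.0% and 13.5% over all tested genes and 16.4% and 23.4% in the most abundant 25%. In this list 1 was negative when p was adjusted over every gene that had one, and 1 after centring on the most abundant 25% of genes. The positive ones were the arrestin-domain genes Txnip, the thioredoxin-interacting brake on glucose uptake, at 1.42 ± 0.43 and Arrdc4 at 0.76 ± 0.24 (SE) in the authors' deposited table. The transketolase Tkt (-0.80 ± 0.15) and the phosphatase G6pc3 (-0.45 ± 0.17) were negative, with SE, in the authors' deposited table, as was the elongase Elovl6 (-0.63). The lipogenic enzyme Acly, the most abundant, had 0.13 ± 0.16 (SE) in the authors' deposited table.

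Of 22 genes that induce or restrain Myc in activated lymphocytes, 5 were positive and 2 negative (median 0.22). That is 22.7% and 9.09%, beside 11.0% and 13.5% over all tested genes and 16.4% and 23.4% in the most abundant 25%. Adjusted over every gene with a p-value 3 were positive, and with the length and GC trends removed 4 were negative. Rptor, the mTORC1 subunit, had 0.98 ± 0.15, the calcium-regulated factor Nfatc2 0.88 ± 0.20 and the repressor Bcl6 0.99 ± 0.24 (SE) in the authors' deposited table. Prdm1, which encodes BLIMP-1, a repressor of Myc in plasma cells, had 0.57 and Stat6, the IL-4 and IL-13 signal transducer, 0.31 in the authors' deposited table. Tcf7, a Wnt pathway factor, had -1.004 ± 0.23 (SE) and Stat5a, which acts downstream of IL-2 and IL-7, -0.53 in the authors' deposited table. Il7r, the most abundant, had 0.51 ± 0.21 (SE, adjusted p 0.0540269) in the authors' deposited table.

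Markers of other cell types were on the negative side as well. Of 37 such markers 32 had an adjusted p, of which 10 were negative and 0 positive and 26 lay below 0 (median -0.76). These 10 were 31.25% of the 32, beside 13.5% negative and 11.0% positive calls over all tested genes. The summed mean of the 37 markers was 49957 normalized counts, beside 191981 for the 12 ILC2 markers. The negative calls were 2 of 6 tested T cell, 3 of 6 B and plasma cell, 3 of 6 dendritic cell, 1 of 8 macrophage, monocyte and neutrophil, and 1 of 6 epithelial, endothelial and stromal markers. The T cell receptor adaptor Trat1 had -2.65 ± 0.35 and the CD3 chain Cd3g -0.66 ± 0.19 (SE), the latter at a mean of 1605 normalized counts in the authors' deposited table. Ighm, the immunoglobulin mu chain, had -1.56 ± 0.53 (SE) at a mean of 6265 normalized counts in the authors' deposited table, while the B cell marker Ms4a1 had a mean of 76.3 and was not called. The chemokine receptor gene Ccr7 had -2.57 ± 0.21, and H2-Ab1 and Cd74, both of antigen presentation on MHC class II, had -1.74 ± 0.22 and -0.99 ± 0.21 (SE) in the authors' deposited table. Cd74 had the highest mean of all these markers, 11427 normalized counts in the authors' deposited table. The 6 tested markers above 0 were not called. They were Xcr1 (0.32, at a mean of 499 normalized counts) and Itgax (0.21) of dendritic cells, and Cd4 (0.37) and Cd3e (0.075) of T cells. Epcam (0.38) of epithelial cells and Adgre1 (0.035) of macrophages were the others, in the authors' deposited table. Lyz2 and Sftpc, of myeloid and alveolar epithelial cells, had means of 4469 and 7594 normalized counts in the authors' deposited table and were not called, while C1qa of macrophages (-2.63) and Pdgfrb of stromal cells (-1.63) were. Scgb1a1, of the epithelial, endothelial and stromal list, had -3.15 ± 1.50 (SE) at a mean of 3644 normalized counts in the authors' deposited table. It had no p-value, so it is in the summed mean but not among the 32. All 37 markers were listed with a mean above 0. The part of other cells in the values of the network was not tested, and the marker levels of each group were not used here.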

How the data were processed

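The mm10 assembly and the tools Cufflinks and HISAT2 were named by the authors, per the submitters' processing notes, without versions or roles. The labels' protocols name a SMART-Seq HT kit for full-length cDNA and a transposase-based TruePrep V2 library kit. How genes were counted, on which annotation and with which filters or strand setting, is not given in sources used here. Per the file headers, the authors' table lists per gene the mean of normalized counts, a signal over their libraries. It also lists the log2 fold change, the standard error, the score of the authors' test and p-values before and after adjustment, per the file headers. Which libraries entered the authors' fit is not stated. The score is fold change over error (checked to 2.41e-07), and the adjustment is that of Benjamini and Hochberg (checked to 7.56e-07). Another 12 columns, with per-sample values under 6 names, match no label and entered no step, so that the planned count test, depth per sample and replicate checks could not be had. Nothing says whether the pooled samples came from separate experiments, so that the p-values measure only the spread between libraries, which may be partly technical.

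The 10 members, the lists and the motifs were chosen with earlier results of these data known. All members are named. From each of the 10 pathway lists the 3 genes with the smallest p and the most abundant were named, with other called genes and a few that were not called, chosen after their values were seen. Markers were named after their values were seen. Most other list genes enter the counts only, and some are not reported here. Intervals are the log2 fold change with its standard error at a level of 95% under a normal distribution. Exon lengths, GC content and positions came from GENCODE M21 (mm10), in which 39237 gene identifiers were found. Trends were removed by lowess with a span of 0.3, on log10 exonic length and then GC content. Cip2a was matched through a RefSeq synonym. The adjustment and trend steps were tested on simulated data. Tools were statsmodels 0.14.6, scipy 1.17.1, pandas 2.3.3 and numpy 2.4.6 in Python 3.11.15, with matplotlib 3.10.9.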

Additional observations from a re-analysis of the deposited data

How the results depend on the processing

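Of the 7 alternatives run, 5 change only the threshold or the adjustment and leave the fold changes as they are. Of the others, centring shifts every gene by less than any member's value, and removal of the length and GC trends turned the sign of no member and not of Stk11. At an adjusted p below 0.01, 2 members were positive and 0 negative, as under a Holm adjustment (2 and 0), with Myc and Mycn the positive ones in both. The calls of Max (0.62), Mxd3 (-1.05), Mxd4 (0.58), Mxi1 (-0.59) and Mga (0.46) were lost in both, and that of Stk11 (-1.34) under Holm. Mga (0.46) also lost its call when p was adjusted over every gene with a p-value. With length and GC trends removed Mxd4 (0.47) and Mga (0.27) lost their calls and Mlx (0.35) gained one. Of the MYC-activated targets, 1 was positive and 19 negative under Holm, against 3 and 44. Over all genes the counts were 1016 positive and 1347 negative below 0.01, and 305 and 508 under Holm, against 1644 and 2024. In the smaller lists and over all genes, 46 of 154 counts moved by more than 1.5 times. Centring on the most abundant 25% of genes, a shift of -0.037, and a mean of at least 100 normalized counts changed no member's call. No paired analysis was possible because no column of per-sample values matches a label; for the same reason the planned count-based tests and leaving out replicates were not run. Precision is that of the deposited standard errors, with a median of 0.233.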
